A study of Mus musculus with 16 samples.

Results

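The fatty acid synthesis genes of the mouse liver were followed in 4 groups of animals that differed in the Lcn2 gene and in exposure to CCl4, a solvent that injures hepatocytes and scars the liver when given repeatedly. The 10 genes are enzymes and regulators of hepatic lipogenesis, taken by name with no threshold on their values: Srebf1, Mlxipl, Acly, Acaca, Acacb, Fasn, Elovl6, Scd1, Thrsp and Pnpla3. They were chosen with earlier results of these data known. All 10 were measured, among 24363 genes tested. RNA from whole liver was hybridised to 16 Agilent arrays of 1 colour, 1 array per animal, to ask how loss of Lcn2 (lipocalin 2, a secreted protein) alters the response to CCl4. In WT livers 7 of the 10 genes rose under CCl4 and 0 fell, where 8.05% of all genes were called higher. In Lcn2-/- livers 3 of the 10 rose, or 1 to 5 under the alternatives run, where 6.56% of all genes were called higher. No difference between the genotypes passed the threshold for any of the 10, except that of Thrsp in controls with array weights.

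Fatty acid synthesis turns surplus carbohydrate into lipid in the cytosol of the hepatocyte. Citrate from mitochondria is split to acetyl-CoA, acetyl-CoA is carboxylated to malonyl-CoA, and fatty acid synthase joins these units into palmitate, which is then elongated and desaturated before it enters triglyceride. In liver the genes of this pathway are raised together after feeding, by insulin through the transcription factor encoded by Srebf1 and by glucose metabolites through that encoded by Mlxipl, and are low in fasting.

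All animals were male BALB/c mice, raised on chow until the start at 6 to 8 weeks of age. WT control (4 arrays) and Lcn2-/- control (3 arrays) are labelled as controls, for which the study names corn oil, the vehicle, over 4 weeks. WT CCl4 (5 arrays) and Lcn2-/- CCl4 (4 arrays) received 0.5 ml/kg of CCl4 in corn oil by intraperitoneal injection, 2 times per week for 4 weeks, and the liver was collected 48 h after the final injection. Lcn2-/- animals lacked the gene in every cell, and their line was made on a mixed B6.129 background and then crossed into BALB/c, so donor chromosome segments may remain and cannot be told apart from the loss of Lcn2. How long animals had been without food was not given in the sources used here. In whole liver, fewer cells of a type and less RNA per cell cannot be told apart.

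The share of spots well above background was 51.6% to 60.9% per array. It was 51.59% to 52.37% in Lcn2-/- control and 54.25% to 56.58% in WT control, without overlap. Under CCl4 it was 52.3% to 55.93% in Lcn2-/- and 54.62% to 60.92% in WT. The cause of this difference was not tested. The 75th percentile of the signal ranged from 842 to 2067, and r between arrays of a group lay between 0.9737 and 0.9916 across genes. Lcn2 was lower on the arrays labelled Lcn2-/-: its log2 signal ranged from 10.46 to 12.25 there and from 13.8 to 17.57 on the WT arrays. Its probe was nevertheless well above background on all 3 Lcn2-/- control and all 4 Lcn2-/- CCl4 arrays. The 12 hepatocyte markers were well above background on all arrays, and 0 of them passed the threshold in any comparison. All 7 control arrays and WT CCl4 1 lay on 1 slide, and the other 8 CCl4 arrays on another, so that treatment and slide are nearly confounded. In Lcn2-/- they are fully confounded. A Lcn2-/- response fitted with slide as a fixed block takes its slide shift from WT CCl4 1 against the other WT CCl4 arrays. Values below are log2 of the quantile-normalized signal, where a difference of 1 is a doubling. Tests are limma's, p values are adjusted by Benjamini-Hochberg over all genes tested, and 0.05 is the threshold. Levels are compared within a gene, because each probe binds with its own strength, and the summed signals of marker lists therefore weight each probe by its brightness.

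Of the 10 genes, 9 have a window in the RefSeq promoter table (GRCm38.p6), whose windows of 300 bases reach from before to just after a gene's start, and Srebf1 and Mlxipl have several. Each window was searched on both strands for CCAAT, the letters that the factor NF-Y reads, for the E-box CACGTG, and for TCACCCCAC and TCACGCCAC, letters of the sterol regulatory element. CCAAT was found in 8 of the 12 windows, against 37.4% of all 32851 windows in the table. CACGTG was found in 1, that of Mlxipl, against 7.15% of all windows, and the sterol element letters were in 0 of the 12, against 0.551% and 0.119%. Stretches before the start are given for 3 genes that rose in WT and for the Mlxipl window with the E-box, with each match in capitals, CCAAT or its reverse complement ATTGG, and CACGTG. In Fasn the CCAAT on one strand overlaps that on the other, so that 8 letters in a row are capitals.
Fasn, chr11:120824572-120824667, minus strand: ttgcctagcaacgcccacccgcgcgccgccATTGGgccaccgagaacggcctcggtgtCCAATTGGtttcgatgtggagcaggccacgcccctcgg
Thrsp, chr7:97417568-97417659, minus strand: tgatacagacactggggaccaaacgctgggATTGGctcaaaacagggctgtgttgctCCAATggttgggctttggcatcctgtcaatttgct
Pnpla3, chr15:84167687-84167751, plus strand: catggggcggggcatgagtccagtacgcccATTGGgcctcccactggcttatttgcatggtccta
Mlxipl, chr5:135089687-135089827, plus strand: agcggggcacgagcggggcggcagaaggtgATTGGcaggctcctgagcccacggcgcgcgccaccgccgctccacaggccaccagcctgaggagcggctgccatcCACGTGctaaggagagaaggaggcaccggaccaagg
The matches lie 90, 62 and 59 bases before the start in Fasn, 79 and 52 in Thrsp, 99 in Pnpla3, and 173 (CCAAT) and 98 (CACGTG) in Mlxipl. A match is a run of letters and not a measured binding site.

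The response to CCl4 was compared first, within each genotype. In WT livers 7 of the 10 genes passed the threshold, all of them higher, against 16.7% of all genes tested in either direction and 8.05% higher. All 10 values were above 0, and the median difference was 1.48, against -0.03 over all genes. An unadjusted p under 0.05 in limma was found for 9 of the 10, and for 7450 of the 24363 genes tested. In Lcn2-/- livers 3 of the 10 passed, all higher, against 12.1% of all genes in either direction and 6.56% higher. Again all 10 values were above 0, with a median of 0.90 against -0.02 over all genes. Here 5 of the 10 had an unadjusted limma p under 0.05, as did 6569 of the 24363 genes tested. Values did not overlap between CCl4 and control arrays for 6 of the 10 genes in WT (17.4% of all genes) and for 3 of the 10 in Lcn2-/- (24.8% of all genes).

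**Figure D1:**
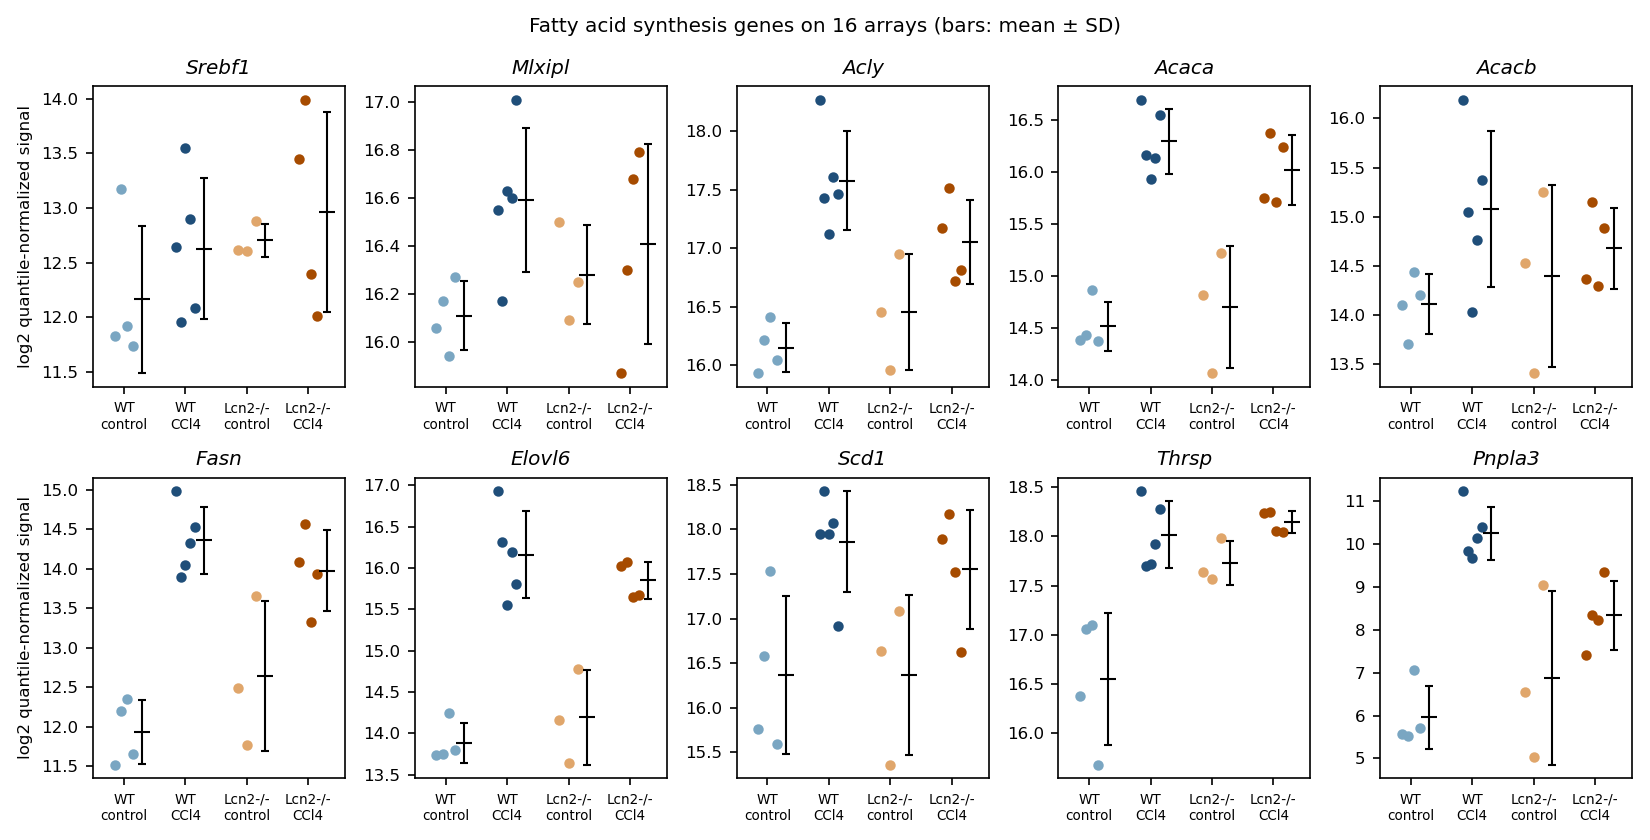
Log2 quantile-normalized signal of the 10 fatty acid synthesis genes on 16 arrays, 1 panel per gene with its own axis, by group; points are arrays and bars the mean ± SD. The WT CCl4 arrays lie above all WT control arrays for Acly, Acaca, Fasn, Elovl6, Thrsp and Pnpla3, while Srebf1 overlaps between all groups.

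The regulators moved least. Srebf1, the transcription factor that insulin activates, was probed on chromosome 11, 60012664 to 60012723 (mm9). Its log2 signal was 11.83, 13.17, 11.92 and 11.74 on the WT control arrays and 12.64, 11.96, 13.55, 12.90 and 12.09 on the WT CCl4 arrays. These ranges overlap, and the difference of 0.46 (SE 0.426, 95% interval -0.45 to 1.38, limma adjusted p 0.5) did not pass. In Lcn2-/- it ranged from 12.61 to 12.88 in controls and from 12.01 to 13.99 under CCl4, a difference of 0.26 (limma adjusted p 0.78). The intervals leave room for a rise of more than 2-fold in either genotype, and the Srebf1 probe does not tell apart the transcripts from its several starts.

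Mlxipl, the transcription factor that responds to glucose metabolites, was probed on chromosome 5, 135613705 to 135613764 (mm9). Its log2 signal ranged from 15.94 to 16.27 in WT control and from 16.17 to 17.01 in WT CCl4, and from 16.09 to 16.50 and 15.87 to 16.79 in the same groups of Lcn2-/-. The WT difference of 0.49 (SE 0.192) had an unadjusted p of 0.0235 in limma and an adjusted p of 0.0997, and the Lcn2-/- difference was 0.13 (limma adjusted p 0.753). Neither passed the threshold.

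The enzymes that supply and carboxylate the building units rose in part. Acly, the citrate lyase that makes cytosolic acetyl-CoA, was probed on chromosome 11, 100337674 to 100337733 (mm9). Its log2 signal was 15.93, 16.21, 16.41 and 16.04 in WT control and 18.27, 17.43, 17.12, 17.61 and 17.46 in WT CCl4. All 5 CCl4 arrays lay above all 4 controls, and the rise of 1.43 (SE 0.244, 2.7-fold) had a limma adjusted p of 0.00104. The Lcn2-/- arrays read 16.45, 15.96 and 16.95 in controls and 17.17, 17.51, 16.72 and 16.81 under CCl4, so that Lcn2-/- control 3 stood above 2 of the 4 CCl4 arrays. That difference, 0.60 (SE 0.278, limma adjusted p 0.181), did not pass.

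Acaca encodes the acetyl-CoA carboxylase of the cytosol, which makes the malonyl-CoA used for synthesis, and its probe lies on chromosome 11, 84215093 to 84215152 (mm9). In WT the log2 signal was 14.39, 14.44, 14.87 and 14.38 in controls and 16.69, 16.16, 15.93, 16.13 and 16.54 under CCl4. In Lcn2-/- it was 14.82, 14.07 and 15.22 in controls and 15.75, 16.37, 15.71 and 16.24 under CCl4. No CCl4 array overlapped a control of its genotype, and Acaca rose in both genotypes. The rise in WT was 1.77 (SE 0.233, 3.4-fold, limma adjusted p 0.000147), and that in Lcn2-/- was 1.32 (SE 0.265, 2.49-fold, limma adjusted p 0.00494). With slide as a fixed block the Lcn2-/- value was 1.82 and its limma adjusted p 0.0651.

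Acacb encodes the carboxylase tied to mitochondria, whose malonyl-CoA restrains fatty acid entry into oxidation (chromosome 5, 114700702 to 114700761, mm9). Its log2 signal ranged from 13.71 to 14.44 in WT control and from 14.03 to 16.19 in WT CCl4, with WT CCl4 3 inside the control range. The difference of 0.97 (SE 0.405, limma adjusted p 0.12) did not pass, and without WT CCl4 3 it was 1.23 (limma adjusted p 0.0435). In Lcn2-/- the controls alone spread from 13.41 to 15.25, wider than the CCl4 arrays from 14.30 to 15.15, and the difference was 0.28 (limma adjusted p 0.743).

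Fatty acid synthase, the enzyme that assembles palmitate, showed the second largest difference of the 10 genes in WT. Its gene Fasn was probed on chromosome 11, 120667666 to 120667725 (mm9), and read 11.52, 12.20, 12.35 and 11.65 in WT control against 13.90 to 14.98 in WT CCl4 (14.98, 13.90, 14.05, 14.32 and 14.53). The groups lay more than 1 log2 unit apart at their nearest arrays, and Fasn rose by 2.43 (SE 0.354, 5.38-fold, limma adjusted p 0.000313). In Lcn2-/- it read 12.49, 11.77 and 13.65 in controls and 14.08, 14.57, 13.32 and 13.93 under CCl4. Lcn2-/- control 3 lay above Lcn2-/- CCl4 3, and the rise of 1.34 (SE 0.403, 2.53-fold) passed narrowly (limma adjusted p 0.0436), while the exact permutation p was 0.0857.
The Lcn2-/- call of Fasn is fragile. It was lost in 10 of the 16 fits that left out 1 array, those without WT control 2 or 4, Lcn2-/- control 1 or 2, WT CCl4 3, 4 or 5, or Lcn2-/- CCl4 1, 2 or 4, and the limma adjusted p reached 0.217, without Lcn2-/- control 2. The difference ranged from 0.91 to 1.85 over the 16 fits. With slide as a fixed block the value was 2.12 (limma adjusted p 0.148), and with no filter on dim probes the adjusted p was 0.066.

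Among the enzymes that modify palmitate, Elovl6, the elongase that adds carbon to it, gave the smallest p. Elovl6 (chromosome 3, 129341248 to 129341307, mm9) read 13.74, 13.75, 14.25 and 13.80 in WT control and 16.93, 16.31, 15.55, 16.20 and 15.81 in WT CCl4. It read 14.16, 13.64 and 14.78 in Lcn2-/- control and 16.02, 16.07, 15.65 and 15.67 in Lcn2-/- CCl4. CCl4 and control arrays were apart in both genotypes, with rises of 2.28 (SE 0.266, 4.85-fold, limma adjusted p 5.47e-05) in WT and 1.66 (SE 0.302, 3.16-fold, limma adjusted p 0.00258) in Lcn2-/-.

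Scd1, the desaturase that makes monounsaturated fatty acids, was probed on chromosome 19, 44469387 to 44469446 (mm9). Its log2 signal spread over more than 1.5 units within a group: 15.76, 16.58, 17.53 and 15.59 in WT control and 17.95, 18.43, 17.95, 18.07 and 16.92 in WT CCl4. WT control 3 lay above WT CCl4 5, and the rise of 1.50 (SE 0.463, 2.82-fold) passed narrowly (limma adjusted p 0.0394, exact permutation p 0.0238). In Lcn2-/- it read 16.64, 15.36 and 17.09 in controls and 17.89, 18.17, 17.52 and 16.63 under CCl4, a difference of 1.19 (SE 0.527, limma adjusted p 0.161) that did not pass.
The WT call of Scd1 was lost in 8 of the 16 fits that left out 1 array, those without WT control 1, 2 or 4, WT CCl4 1, 2, 3 or 4, or Lcn2-/- CCl4 3. The limma adjusted p rose to 0.132, without WT control 1, and the difference ranged from 1.24 to 1.89 over the 16. It was also lost with slide as a fixed block (1.58, limma adjusted p 0.286) and with no filter on dim probes (adjusted p 0.0631).

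Thrsp encodes a small nuclear and cytosolic protein, also called Spot 14, that follows lipogenesis closely and binds a partner of acetyl-CoA carboxylase. Its probe (chromosome 7, 104561649 to 104561708, mm9) read 16.38, 17.06, 17.10 and 15.68 in WT control and 18.46, 17.70, 17.72, 17.92 and 18.28 in WT CCl4. The groups did not overlap, and Thrsp rose by 1.46 (SE 0.256, 2.75-fold, limma adjusted p 0.00131). In Lcn2-/- the controls already lay at 17.64, 17.57 and 17.98, just under the CCl4 arrays at 18.24, 18.25, 18.06 and 18.04. The difference was 0.42 (SE 0.292, limma adjusted p 0.381), although the arrays did not overlap (exact permutation p 0.0286, the smallest that 35 splits allow).

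Pnpla3, a lipid droplet protein with triglyceride lipase and acyltransferase activity whose human counterpart is linked to fatty liver, had the largest CCl4 difference of the 10 in WT. On its probe (chromosome 15, 84019823 to 84019882, mm9) the log2 signal was 5.56, 5.52, 7.05 and 5.72 in WT control and 11.22, 9.82, 9.66, 10.12 and 10.39 in WT CCl4. The nearest arrays of the groups were more than 2 log2 units apart, and the rise was 4.28 (SE 0.65, 19.4-fold, limma adjusted p 0.000428). Lcn2-/- controls read 6.55, 5.04 and 9.04, the second not well above background, and Lcn2-/- CCl4 arrays 7.41, 8.34, 8.22 and 9.35.
Lcn2-/- control 3 stood above 3 of the 4 CCl4 arrays of its genotype. The Lcn2-/- difference of 1.45 (SE 0.74, 95% interval -0.13 to 3.04, limma adjusted p 0.226) did not pass, and its size depended on single controls. Without Lcn2-/- control 3 it was 2.53 (limma adjusted p 0.0149), and without Lcn2-/- control 2 it was 0.53 (limma adjusted p 0.721). Among the alternatives with all arrays it was lowest with normexp at 0.86 (limma adjusted p 0.296), highest with slide as a fixed block at 2.68 (limma adjusted p 0.339), and passed with array weights at 1.69 (limma adjusted p 0.032).

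**Figure D2:**
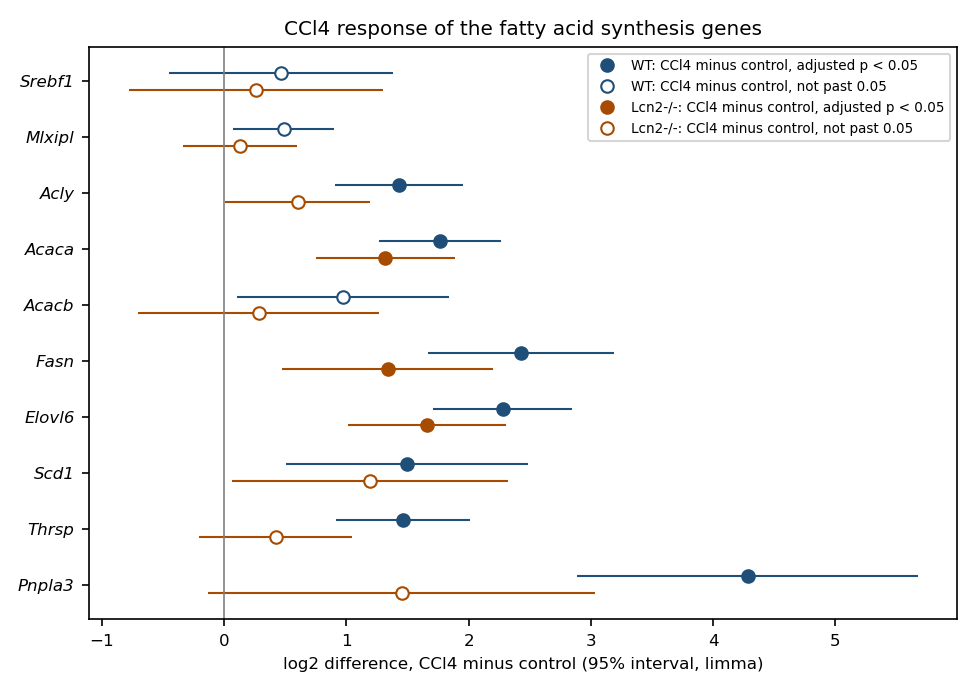
Log2 difference of CCl4 minus control for the 10 genes in WT (blue) and Lcn2-/- (brown), with 95% intervals from limma; filled points passed an adjusted p of 0.05. All 20 points lie to the right of 0, and in each gene the WT point lies to the right of the Lcn2-/- point.

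The second comparison asked whether the genotypes differed under CCl4. Of the 10 genes 0 passed the threshold by limma, against 0.649% of all genes tested. Of the 10 values 8 were lower in Lcn2-/-, with a median of -0.31 against -0.01 over all genes. An unadjusted limma p under 0.05 was found for 2 of the 10, and for 3326 of the 24363 genes tested. The 2 members were Acly (-0.52, SE 0.244, p 0.0493, limma adjusted p 0.364) and Pnpla3. Pnpla3 read 7.41 to 9.35 in Lcn2-/- CCl4 and 9.66 to 11.22 in WT CCl4, without overlap, as did 5.66% of all genes. The Pnpla3 difference was -1.91 (SE 0.65, 95% interval -3.31 to -0.52), with an unadjusted p of 0.0105 and an adjusted p of 0.227 in limma, and an exact permutation p of 0.00794, the smallest that 5 against 4 arrays allow.
Among the remaining genes the differences ran from -0.40 for Acacb to 0.33 for Srebf1, each with overlapping arrays. For Fasn, Acaca and Elovl6, which rose in both genotypes, they were -0.38 (95% interval -1.14 to 0.38), -0.27 (-0.77 to 0.23) and -0.31 (-0.88 to 0.26). On the slide that holds 4 arrays of each genotype under CCl4, the Pnpla3 means differed by -1.67 and those of Acly by -0.35.

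The third comparison, between the genotypes in control livers, also passed for 0 of the 10 genes by limma, against 0.517% of all genes. The unadjusted limma p was under 0.05 for 1 of the 10, and for 2027 of the 24363 genes tested. Here 9 of 10 values were higher in Lcn2-/-, with a median of 0.31 against -0.01 over all genes. That count leans on Lcn2-/- control 3, without which 6 of 10 values were higher and Acaca (-0.081), Acacb (-0.14) and Pnpla3 (-0.17) turned lower. Thrsp had the lowest p: its arrays did not overlap between the genotypes, as was so for 9.74% of all genes, and the difference was 1.17 (SE 0.292, 2.25-fold, unadjusted p 0.00124, limma adjusted p 0.115, exact permutation p 0.0857). With array weights it passed (limma adjusted p 0.00581). The next largest differences were those of Pnpla3 at 0.92 and Fasn at 0.71 (limma adjusted p 0.935 and 0.756). Both had Lcn2-/- control 2 and Lcn2-/- control 3 at opposite ends of the group. Scd1 was at -0.01 (SE 0.527).

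The interaction, which is the Lcn2-/- response minus the WT response and so uses the same arrays again, was negative for all 10 genes, with a median of -0.65 against 0.02 over all genes. It passed for 0 of the 10, with limma adjusted p values of 1 for each, against 0.0534% of all genes tested. Over all genes tested, 807 of 24363 had an unadjusted limma p under 0.05. Among the 10 this held for Pnpla3 (-2.83, SE 0.984, p 0.0121), Thrsp (-1.04, SE 0.389, p 0.0178) and Acly (-0.83, SE 0.37, p 0.0407), followed by Fasn (-1.09, p 0.0611). Single Lcn2-/- controls moved these values: without Lcn2-/- control 3 Pnpla3 was at -1.75 and Fasn at -0.58, and without Lcn2-/- control 2 they were at -3.75 and -1.52. A weaker response of these genes in Lcn2-/- was therefore not detected at this number of arrays, and the intervals, which for Pnpla3 run from -4.94 to -0.72 before adjustment, do not show that the responses are alike.

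Further probes were on the array for 4 of the genes. With CCl4 the 3 other Acaca probes differed by 1.07 to 1.81 in WT and by 0.74 to 1.77 in Lcn2-/-, the second Acly probe by 1.18 and 0.51, and the second Acacb probe by 0.94 and 0.62. These CCl4 differences have the sign of the probe reported above, although that of Acly in Lcn2-/- (unadjusted limma p 0.251) and those of Acacb (0.104 and 0.332) did not pass 0.05. Between the genotypes under CCl4 the signs were mixed, with the second Acacb probe at 0.18 and 1 Acaca probe at 0.065, against -0.40 and -0.27 on the probes reported. The second Pnpla3 probe (chromosome 15, 84016440 to 84016499, mm9) gave smaller differences, 2.86 in WT and 0.79 in Lcn2-/-, and its genotype difference under CCl4 was -0.96. It read 8.04, 9.92, 7.64 and 7.86 in Lcn2-/- CCl4 and 10.08, 9.88, 8.60, 9.08 and 9 in WT CCl4, so that on this probe Lcn2-/- CCl4 2 lay among the WT arrays. The separation of the genotypes under CCl4 thus held for 1 of the 2 Pnpla3 probes.

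**Figure D3:**
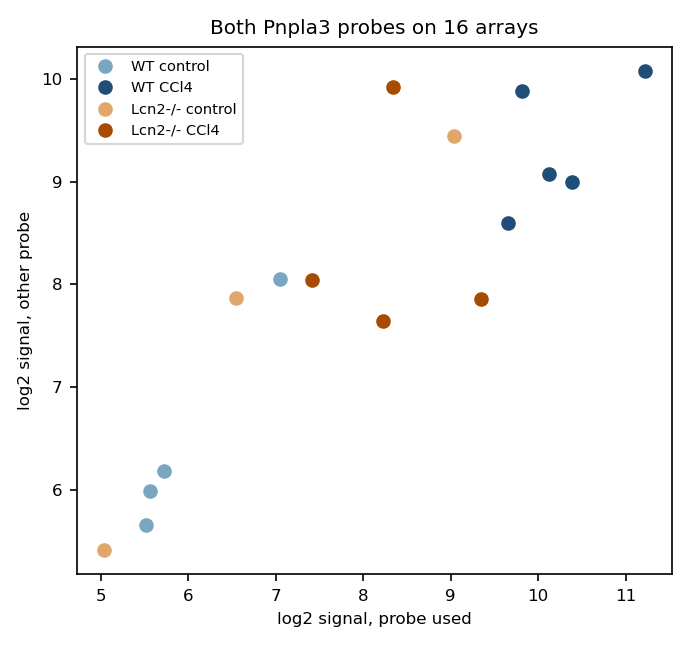
Log2 signal of both Pnpla3 probes on 16 arrays, the probe used on the horizontal and the other on the vertical axis, coloured by group. Lcn2-/- control 3, at 9.04 and 9.45, lies apart from the other controls, and Lcn2-/- CCl4 2, at 8.34 and 9.92, reads as high as WT CCl4 arrays on the other probe only.

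Within a group the genes varied together from animal to animal. Averaged over the 10 genes, an array's deviation from its group mean was 0.51 for WT CCl4 1, 0.41 for WT control 3 and 0.68 for Lcn2-/- control 3, where 9 of 10 genes lay above the group mean, and -0.68 for Lcn2-/- control 2, where 0 of 10 did. Over the 16 arrays the Pearson correlation of these deviations had a median of 0.448 over the 45 pairs of genes, and 36 pairs were above 0. It was 0.921 for Acly with Elovl6, 0.915 for Acaca with Acacb, 0.893 for Acly with Fasn and 0.871 for Acaca with Pnpla3. Srebf1 and Mlxipl stood outside this block, with values from -0.209 to 0.43 for Srebf1 with the enzymes, Thrsp and Pnpla3, and from -0.497 to 0.279 for Mlxipl with the same genes. These are descriptions over arrays that share 2 slides and a single normalization, and no test was made on them.

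**Figure D4:**
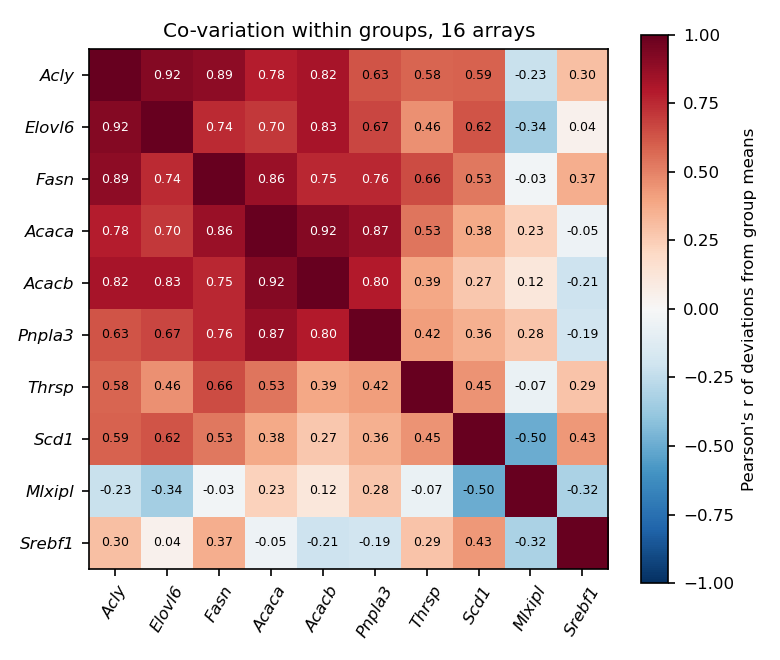
Pearson correlation between the 10 genes of their deviations from group means over 16 arrays, red above 0 and blue below. Acly, Elovl6, Fasn, Acaca, Acacb and Pnpla3 form a block from 0.628 to 0.921, and Mlxipl and Srebf1 lie outside it.

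Among the genes tested other than the 10, those whose deviations followed Fasn most closely over the 16 arrays were Gm7898 (r 0.879), Slc2a4 (0.877), which encodes the insulin-responsive glucose transporter, and Paox (0.868). For Pnpla3 they were Chmp4c (0.957), Gpr160 (0.934) and Heyl (0.913). For Scd1 they were Tmem176a (0.916), Ralb (0.906) and Basp1 (0.905). Srebf1 was followed by Stard5 (0.889), which encodes a sterol-binding protein, by an unannotated transcript on chromosome 17 and by Dapk1 (0.871). They are the highest values of a ranking over all tested genes but the 10, and some high values arise in any such ranking.

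Because slide and treatment nearly coincide, the WT response was also read on the slide of the controls, where WT CCl4 1 is the only CCl4 array. It lay in the lower tier of that slide and all 4 WT controls in the upper, so treatment and tier cannot be told apart there. WT CCl4 1 lay above the WT control mean by 5.26 for Pnpla3, 3.05 for Fasn and for Elovl6, 2.16 for Acaca, 2.12 for Acly and 2.08 for Acacb. It was above it by 1.90 for Thrsp, 1.58 for Scd1, 0.47 for Srebf1 and 0.445 for Mlxipl. For Srebf1 it lay inside the range of the 4 WT controls. With slide as a fixed block, where the treatment effect rests on this array, 6 of the 10 genes passed in WT and 1, Elovl6, in Lcn2-/- (2.62, limma adjusted p 0.0111). Of all 24363 genes tested, 1295 passed in WT and 426 in Lcn2-/- with this block. WT CCl4 1 also had the highest mean of the 10 genes among the WT CCl4 arrays. No Lcn2-/- CCl4 array lay on the slide of the controls. The blocked Lcn2-/- values therefore carry a slide shift read from WT CCl4 arrays only, and are not a response read within a slide.

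Neighbouring steps of lipid metabolism were read from lists of genes. Of the 58 calls of genes that the naming rule takes from these and the marker lists, 25 were lost with slide as a fixed block, with limma adjusted p values from 0.0527 to 0.354. They were those of Taldo1, Elovl7, Acaa1b, Ehhadh, Pdk4, Fabp4, Lyz2 and Spp1 in both genotypes, of Scd2, Elovl3, Mbtps2, Hsd17b13 and Plin5 in Lcn2-/-, of Pnpla5, Adrb3 and Clec4f in WT, and of Irs2 between the genotypes. With 75th percentile scaling 9 were lost, and beside them that of Taldo1 in WT, whose sign was turned (limma adjusted p 0.969). Counts of calls in the lists are to be read against the 16.7% of all genes called in WT and the 12.1% in Lcn2-/-. Of 14 genes that supply acetyl-CoA, citrate and NADPH, 6 rose in WT and 0 fell, with a median of 0.29. Me1, the malic enzyme that makes NADPH, rose by 1.06 (limma adjusted p 0.00061, SE 0.169), and Pdhb by 0.44, Tkt by 0.42 and Taldo1 by 0.28 (limma adjusted p 0.0105, 0.018 and 0.0255). With the mean of all probes of a gene Pdhb was at 0.28 and did not pass (limma adjusted p 0.0843). In Lcn2-/- 1 of the 14 rose, Taldo1 by 0.33 (limma adjusted p 0.0302), and Me1 was at 0.50 (limma adjusted p 0.109). Me1 in Lcn2-/- passed with slide as a fixed block, at 1.18 (limma adjusted p 0.0437), and without WT CCl4 1 (0.0497). Leaving out 1 array lost the Taldo1 call in 4 of 16 fits in WT (limma adjusted p up to 0.0884) and in 6 of 16 in Lcn2-/- (up to 0.116), and the Tkt call without WT control 4 (0.0543). Scaling to the 75th percentile in place of quantile normalization puts Taldo1 in WT at -0.0083, and the calls of Tkt and Pdhb in WT, of Taldo1, Mbtps2 and Plin5 in Lcn2-/- and of Acsl4 in WT are then lost.

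Of 19 other genes of fatty acid elongation, desaturation and activation, 6 rose and 2 fell in WT, and 2 rose and 1 fell in Lcn2-/-. Scd2, a desaturase that is low in adult liver, rose by 2.80 and 1.91 in WT and Lcn2-/- (limma adjusted p 0.000794 and 0.0286). The Lcn2-/- call of Scd2 was lost without Lcn2-/- control 1 or 2 or Lcn2-/- CCl4 1 or 2 (limma adjusted p 0.0595 to 0.128). Elovl7 rose by 1.99 and 2.77 (limma adjusted p 0.0209 and 0.0087), but its WT groups overlapped, and the WT call was lost without WT control 1, 2 or 4 or WT CCl4 2 (0.053 to 0.0813). In WT livers Acsl4 was 0.47 higher with CCl4 (limma adjusted p 0.0128, and 0.0501 without WT control 2). Elovl3, an elongase of very long chains, went the other way with a WT difference of -3.26 (limma adjusted p 0.000576) and a Lcn2-/- difference of -3.36 (0.00195).

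Of 30 genes of SREBP and ChREBP control, 2 rose and 1 fell in WT, where 16.7% of all genes were called, and 2 rose in Lcn2-/-, against 12.1% of all genes. The medians were -0.02 and 0.12. Khk, the fructose kinase, rose by 0.59 and 0.64 (limma adjusted p 0.000316 and 0.000796), and Mbtps2, a protease that releases active SREBP, by 0.56 in Lcn2-/- (limma adjusted p 0.0183, lost without Lcn2-/- control 2 at 0.101 and without Lcn2-/- CCl4 3 at 0.0513). The Mbtps2 call was also lost with the mean of all probes of a gene (0.43, limma adjusted p 0.0953). Pklr, the liver pyruvate kinase and a target of the Mlxipl product, differed by the same 0.82 in both genotypes, which passed in WT (limma adjusted p 0.0321) and not in Lcn2-/- (0.0693). The WT call was lost without WT control 1, 2 or 4 or WT CCl4 4 (limma adjusted p up to 0.0789), and Lcn2-/- passed with slide as a fixed block (0.0146) and with array weights (0.00321). Pklr in Lcn2-/- also passed without Lcn2-/- control 3 (limma adjusted p 0.0498) and without WT CCl4 1 (0.017). With 75th percentile scaling Khk no longer passed in either genotype.
Irs2, an insulin receptor substrate whose transcript is high in fasting, was the 1 gene of this list that differed between the genotypes under CCl4. It read 11, 11.29, 11.69, 11.42 and 10.69 in WT CCl4 and 12.14, 12.70, 12.27 and 11.89 in Lcn2-/- CCl4, while the controls ranged from 12.21 to 12.47 in WT and from 11.78 to 12.30 in Lcn2-/-. With CCl4 Irs2 fell by 1.09 in WT (limma adjusted p 0.00189, SE 0.201), and under CCl4 it was 1.03 higher in Lcn2-/- than in WT (SE 0.201, limma adjusted p 0.0338), with no overlap. Of the fits that left out 1 array, 9 of 16 lost that genotype call, those without WT control 1 or 4, WT CCl4 1, 2, 4 or 5, or Lcn2-/- CCl4 1, 2 or 3, with values from 0.88 to 1.15 and a limma adjusted p of up to 0.105 over the 16. It was lost with slide as a fixed block (0.98, adjusted p 0.0715) and on the second slide alone (adjusted p 0.166), and the Irs2 interaction was 1.36 (limma adjusted p 0.419).

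In control livers 1 gene of the same list was lower in Lcn2-/-. Fgf21, a liver hormone of fasting and nutrient stress, read 11.66, 11.89, 10.17 and 10.69 in WT control and 8.48, 8.33 and 6 in Lcn2-/- control, a difference of -3.50 (SE 0.61, limma adjusted p 0.0152) with no overlap. The labels do not say what a shared replicate number marks. With these numbers as a block the difference was -3.59 and did not pass (limma adjusted p 0.0622). Without WT control 1 it was -3.31 (limma adjusted p 0.0541). Under CCl4 Fgf21 was also lower in Lcn2-/- but did not pass (-1.975, SE 0.535, limma adjusted p 0.131). Its arrays did not overlap there, as was so for 5.66% of all genes.

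Of 22 cholesterol synthesis genes, the other arm of SREBP targets, 0 passed by limma in any of the 5 comparisons, with medians of -0.10 in WT and -0.11 in Lcn2-/-. Of 24 fatty acid oxidation genes, 4 rose in WT, against 8.05% of all genes called higher, 6 rose in Lcn2-/-, against 6.56%, and 0 fell. Cyp4a14, a fatty acid hydroxylase, rose by 4.3 and 5.42 (limma adjusted p 4.89e-05 and 4.02e-05), Ehhadh of the peroxisome by 1.10 and 1.17 (0.00155 and 0.00366), Acaa1b by 0.90 and 1.07 (0.00151 and 0.00172), and Pdk4, the kinase that holds back pyruvate dehydrogenase, by 1.00 and 1.65 (0.0122 and 0.00158).

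Of 20 genes of the lipid droplet and of lipolysis, 2 rose and 1 fell in WT, against 16.7% of all genes called, and 3 rose and 1 fell in Lcn2-/-, against 12.1%, so that the WT share is near that of all genes. Fitm1, an endoplasmic reticulum protein of droplet formation, fell, with differences of -4.41 in WT and -4.38 in Lcn2-/- (limma adjusted p 7.1e-06 and 3.33e-05). Hsd17b13, a droplet enzyme of hepatocytes, rose by 0.87 and 0.79 (limma adjusted p 8.45e-05 and 0.000781), and Plin5, a droplet coat protein, by 0.76 in Lcn2-/- (limma adjusted p 0.0351). The Plin5 call was lost without Lcn2-/- control 1 or 3 or Lcn2-/- CCl4 1 or 3 (limma adjusted p 0.0813 to 0.115), and without both WT control 3 and Lcn2-/- control 3 (0.0867).
Pnpla5, a relative of Pnpla3, was well above background on 1 of 4 WT controls (6.47, with the others from 2.96 to 3.37) and on all 5 WT CCl4 arrays (8.46 to 9.87), and it passed (limma adjusted p 0.0021). The size of its rise is not well measured against such controls, and the fitted difference of 5.23 ranged from 2.66 to 6.06 over the alternatives run. In Lcn2-/- the controls read 6.23, 3.37 and 8.65, the second not well above background, and the comparison did not pass (limma adjusted p 0.357), though it did without WT control 3 and Lcn2-/- control 3 (limma adjusted p 0.0345). WT control 3 and Lcn2-/- control 3, the controls with the highest Pnpla3, also had the highest Pnpla5 in their groups.
Plin2, the main droplet coat protein of hepatocytes, was lower in Lcn2-/- controls, at 16.44, 16.36 and 16.06 against 17.29, 17.11, 16.80 and 17.51 in WT controls, by -0.89 (SE 0.171, limma adjusted p 0.0296). Under CCl4 Plin2 was also lower in Lcn2-/- but did not pass (-0.57, SE 0.15, limma adjusted p 0.117). Its arrays did not overlap there, as was so for 5.66% of all genes. With the replicate block the difference between controls was -0.85 and did not pass (limma adjusted p 0.12). Of the fits that left out 1 array, 6 of 16 also lost the call, those without WT control 1, 2 or 4 or any Lcn2-/- control, with values from -1.02 to -0.78 and adjusted p of up to 0.112, and with 75th percentile scaling (limma adjusted p 0.096).

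**Figure D5:**
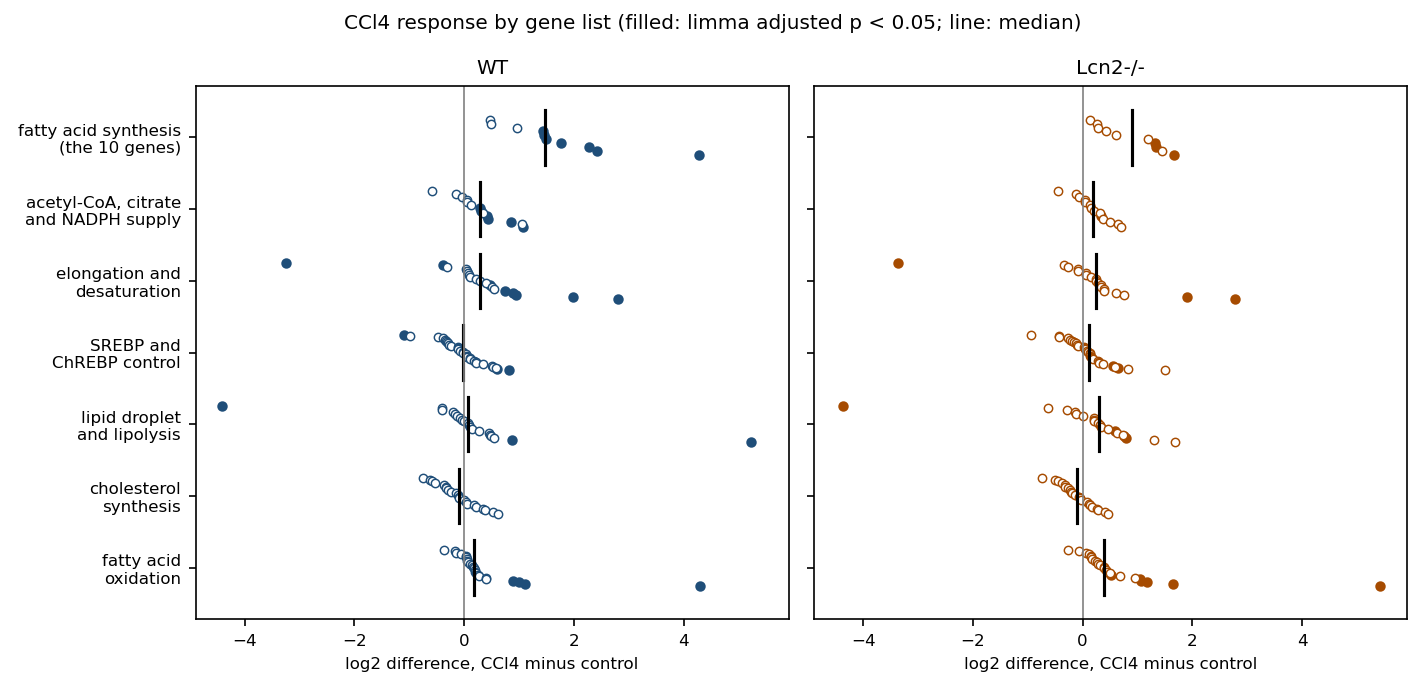
Log2 difference of CCl4 minus control for each gene of 7 lists, in WT (left) and Lcn2-/- (right); filled points passed an adjusted p of 0.05 in limma and black lines are medians. The median of the 10 fatty acid synthesis genes is 1.48 in WT against 0.90 in Lcn2-/-. Medians of the other lists lie between -0.11 and 0.39.

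Adipose tissue also makes fatty acids, and other cells enter the injured liver, so the markers of other cell types were read beside these results. Of 12 adipocyte markers, Lep was well above background on 0 arrays and Adipoq and Plin1 on 1 array each. Of the 9 tested, 2 rose in WT, Lpl by 2.57 and Fabp4 by 0.97 (limma adjusted p 1.49e-05 and 0.000522), which macrophages also express, and 2 fell, Cfd and Adrb3. In Lcn2-/- 2 rose, Lpl by 2.70 and Fabp4 by 1.24 (limma adjusted p 4.36e-05 and 0.000382), and 0 fell. The Adrb3 call was lost with no filter on dim probes (limma adjusted p 0.0633) and in 9 of the 16 fits that left out 1 array, those without WT control 1, 2 or 4, Lcn2-/- control 1 or any WT CCl4 array (0.0509 to 0.122). The summed linear signal of the 9, in units of 1000, ranged from 591 to 658 in WT control, 592 to 708 in WT CCl4, 623 to 652 in Lcn2-/- control and 648 to 783 in Lcn2-/- CCl4. Car3 and Pck1, which hepatocytes also express, gave 90.1% to 98.1% of that sum on each array, so the sum follows those probes and is not a measure of adipocyte RNA. The hepatocyte sum ranged from 3500 to 3760, 3450 to 3960, 3720 to 3840 and 3280 to 4130 in the same order.
Stellate cell and myofibroblast markers moved with treatment, as in 9 of 11 that rose in WT and 8 of 11 in Lcn2-/-. Lum rose by 2.78 and 2.53, Pdgfrb by 1.71 and 1.92, Col3a1 by 2.64 and 3.20 and Col1a1 by 3.49 and 4.21, and the sum went from between 137 and 227 to between 272 and 582 in WT and from between 125 and 141 to between 264 and 368 in Lcn2-/-, with 52.7% to 75.4% of it from Dcn and Col1a2. Of 10 macrophage markers, 4 rose and 2 fell in WT and 4 rose in Lcn2-/-, Trem2 by 3.81 and 4.06 and Lyz2 by 2.46 and 2.69 among the rises and Clec4f, a marker of resident Kupffer cells, by -1.03 among the falls. Gpnmb rose by 7.10 in WT, and was well above background on 0 of 3 Lcn2-/- controls. Between controls it was lower in Lcn2-/- (limma adjusted p 0.0131), by an amount that such controls do not measure. That call was lost without Lcn2-/- control 2 (limma adjusted p 0.0697) or 3 (0.0609). It was also lost without WT control 3 and Lcn2-/- control 3 together (limma adjusted p 0.125) and with the replicate block (0.103). The macrophage sum was 89.5 to 247 in WT control, 127 to 193 in WT CCl4, 95.8 to 257 in Lcn2-/- control and 135 to 174 in Lcn2-/- CCl4, with 46.9% to 77.8% of it from Csf1r and Cd5l. Of 6 cholangiocyte markers tested 1, Spp1, rose in both (1.68 and 2.10), with overlap of the WT groups, a call lost without WT control 1 or 2 in WT (limma adjusted p 0.0715 and 0.0694) and without Lcn2-/- control 2 in Lcn2-/- (0.0803). The cholangiocyte sum went from between 5.9 and 21.9 to between 19.8 and 31 in WT and from between 6.7 and 11.2 to between 16 and 34.5 in Lcn2-/-, with 83% to 97.4% of it from Spp1 and Cftr. The part of these other cells in the rise of the fatty acid synthesis genes was not tested.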

How the data were processed

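Each array is 1 liver RNA sample labelled with Cy3. The authors scanned the arrays with Feature Extraction 10.7.3.1, and the deposited intensity values are the background-subtracted and detrended signal of each spot on a linear scale, not normalized between arrays. The authors also deposited a log2 value table of the same arrays, used as an alternative. It equalled log2 of the background-subtracted median signal after quantile normalization for 99.86% of values within 0.05.

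Log2 intensity of the 59305 gene spots was quantile normalized over 16 arrays, as the study's methods name. Control spots and spots marked as outliers were left out, spots of a probe were averaged, and the 33022 probes that 3 or more arrays measured well above background were tested. The probe with the highest mean represented a gene, 24363 genes in all. Symbols came from RefSeq by accession for 49.8% of gene spots and otherwise from the files. Probe positions are those of the files (mm9), and their exon or UTR annotation was not analysed here.

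One model over the 4 groups with 5 contrasts was fitted in R 4.3.3 by lmFit, contrasts.fit and eBayes of limma 3.58.1 and tested on simulated data. Exact permutation tests were two-sided. Nothing in the labels says how animals were housed or processed together, so p-values measure the spread between these samples. Genotype and array position are also nearly confounded, since all WT arrays but WT CCl4 1 lay in the upper tier of a slide and all Lcn2-/- arrays in the lower. Replicate numbers in the titles were checked for pairing by correlating deviations from group means. Between the control groups r was 0.233, 0.368 and 0.552, and blocked values are given there where a call changes. Between the other pairs of groups r ran from -0.221 to 0.252, the highest for WT CCl4 2 with Lcn2-/- CCl4 2. The labels do not say what a shared number marks, so a pairing of animals is not established.

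The members, lists and tests were chosen with earlier results of these data known. Named are all 10 members, up to 4 genes of each list with the lowest adjusted p in a response, list genes past the threshold between genotypes, and, for 4 members, the 3 genes with the most similar deviations. Alternatives were 75th percentile scaling, normexp correction (offset 50), the authors' table, other probe filters and the mean of probes, slide as fixed or random block, the replicate block, array weights, the second slide alone, and leaving out arrays singly or WT control 3 and Lcn2-/- control 3 together.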

Additional observations from a re-analysis of the deposited data

Results flagged for a closer look

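Within-group spread was examined for each of the 10 genes in the 3 groups of 4 or 5 arrays, 30 groups of values in all. In 4 of them 1 array stood apart, its gap to the nearest other array divided by the range of the group exceeding the 95% critical value of Dixon's test, which chance exceeds in about 1 in 20 groups. All 4 were in WT control. The genes varied together between animals, so the 30 groups of values are not independent. The rate of 1 in 20 holds for a single group and gives no expected count for the 30. Acaca on WT control 3 was at 14.87, against 14.38 to 14.44 on the others (ratio 0.881). Elovl6 on the same array was at 14.25, against 13.74 to 13.80 (0.879), and Pnpla3 at 7.05, against 5.52 to 5.72 (0.87). Srebf1 on WT control 2 was at 13.17, against 11.74 to 11.92 on the other 3 controls (0.876), and no other of the 10 genes stood apart on that array. Without WT control 2 the Srebf1 difference in WT was 0.80, with no call.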

How the results depend on the processing

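The count of genes that rose in WT was 6 or 7 of 10 under every alternative run, and the genotype comparison under CCl4 and the interaction gave 0 under each. In Lcn2-/- the count was 1 with slide as a fixed block and 5 with array weights, which added Scd1 (1.22, limma adjusted p 0.0332) and Pnpla3, and array weights gave 1 gene, Thrsp, between the control groups. Leaving out 1 array in turn gave 6 to 7 genes in WT, 2 to 4 in Lcn2-/- and 0 in the other comparisons. Between Lcn2-/- control and Lcn2-/- CCl4 arrays of the same replicate number, r of the deviations lay between 0.00808 and 0.0189. The replicate block gave 7, 2, 0, 0 and 0 genes in the 5 comparisons and lost Fasn in Lcn2-/- (1.37, limma adjusted p 0.0913). It also lost Irs2 under CCl4 (0.90, adjusted p 0.0917), Gpnmb in controls (adjusted p 0.103, and 0.17 with normexp, its size unmeasured because 0 of 3 Lcn2-/- controls were well above background), Fgf21 and Plin2, added Adrb3 in Lcn2-/- (-1.23, adjusted p 0.0244), and changed no other call of a named gene. Some signs turned. Mlxipl in Lcn2-/- was -0.046 with 75th percentile scaling, and Acacb between controls -0.035 without WT control 3 and Lcn2-/- control 3. Scd1 between controls was 0.081 with 75th percentile scaling, 0.010 with normexp, 0.0049 in the authors' table, 0.34 with array weights and 0.019 without those controls, and Taldo1 in WT was -0.0083 with 75th percentile scaling. Without 1 array, values between controls ranged from -0.081 to 0.49 for Acaca, -0.14 to 0.78 for Acacb, -0.37 to 0.50 for Scd1 and -0.17 to 1.83 for Pnpla3, the last reported as 0.92. In Lcn2-/- they ranged from -0.21 to 0.71 for Acacb and -0.086 to 0.58 for Srebf1, under CCl4 from -0.011 to 0.65 for Srebf1, and in the interaction from -0.81 to 0.059 for Scd1 and -0.55 to 0.11 for Srebf1. Over all genes, slide as a fixed block gave 1295 calls in WT and 426 in Lcn2-/-, against 4063 and 2958, and array weights gave 7007 and 6970. Between genotypes under CCl4 there were 158 calls, 87 with the replicate block, 321 with array weights, 255 without WT control 3 and Lcn2-/- control 3 and 72 to 191 without 1 array. Between controls there were 216 with no filter, 57 with probes seen on all arrays and 1252 with array weights, against 0.517% of genes as reported, and by interaction 13, and 7, 3, 1 and 6 with normexp, the authors' table, the strict filter and the replicate block. Leaving out 1 array gave 2485 to 5071 calls in WT, 1680 to 3194 in Lcn2-/- and 8 to 15 by interaction. Scaling to the 75th percentile moved the median of all genes to -0.16 in WT and -0.14 in Lcn2-/- and the share of calls that were higher from 48.3% to 30.8% and from 54% to 36.5%, while 0 of the 10 genes lost a WT call with it. The cause of these changes was not tested.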
